A study of Caenorhabditis elegans with 12 samples.

Results

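The transcripts of whole Caenorhabditis elegans worms were compared between animals with the label spr-4;spr-3, and others that add daf-2 to that label, which bears on what differs with a daf-2 mutation when both groups carry the spr label. The members were the libraries that the labels give these genotypes, 3 per group, or 6 of the 12 libraries of the series. The remaining libraries came from N2, the wild-type laboratory strain, and from a daf-2 mutant, 3 of each, and serve here as the same contrast in the N2 background. All 4 groups were grown at 20 °C, collected 24 h after the L4 larval stage and labelled day 2, and each sample pooled 100 worms. The labels call the samples biological replicates and give no alleles, so whether a daf-2 or spr mutation removes or weakens its product is not known here. The spr-4;spr-3 animals are called the spr double mutant below, and the libraries labelled spr-4;spr-3;daf-2 are called triple-labelled.

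daf-2 encodes the worm's insulin/IGF-1 receptor. Through the kinases AGE-1, PDK-1 and AKT the receptor keeps the transcription factor DAF-16/FOXO out of the nucleus, so that lowered signalling lets DAF-16 act on stress, metabolic and immune genes, and daf-2 mutants are known for long life, stress resistance and dauer formation. spr-3 and spr-4 encode C2H2 zinc-finger proteins likened to REST, a repressor of neuronal genes in mammals, and were found as suppressors of mutations in the presenilin gene sel-12.

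The 6 libraries held 30837773 to 42323589 counts, with more in each triple-labelled library (37364451 or above) than in any double-mutant library (35307393 or below). Of 46739 genes counted, 15764 had enough reads to be tested. Levels are given in CPM, each gene's share of a library's counts put on a common scale by TMM, and differences as log2 fold changes, triple-labelled over double mutant, with their SE. A gene was called changed at an adjusted p below 0.05 in edgeR's quasi-likelihood test. Genes on the ribosomal RNA loci took 0.0351%, 0.0442% and 0.0346% of the counts in the double-mutant libraries and 0.0421%, 0.036% and 0.0326% in the triple-labelled ones. They took 0.0376%, 0.0385% and 0.0329% in N2 and 0.166%, 0.145% and 0.176% in daf-2, so the 3 daf-2 libraries stood apart. What this adds to the daf-2 over N2 values and to the interactions given below was not tested.

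The genotypes name 3 genes. daf-2 itself had 83.7, 90.4 and 86.6 CPM in the double mutant and 96.7, 87.2 and 87.5 CPM in the triple-labelled libraries, ranges that overlap (log2 fold change 0.06 ± 0.064, edgeR adjusted p = 0.482). A count over the whole gene need not fall with a mutation that leaves the transcript in place, so this checks nothing about the daf-2 label. spr-3 had 8.70, 10.1 and 8.84 CPM in the double mutant against 16.3, 17.7 and 15.2 CPM in the triple-labelled libraries, without overlap. The difference was 0.83 ± 0.086 (edgeR adjusted p = 6.94e-08), beside 18.2, 17.5 and 16.1 CPM in N2, a range that the triple-labelled values overlap. spr-4 had 62.6, 65.4 and 64.4 CPM in the double mutant and 64.3, 61.02 and 58.02 CPM in the triple-labelled libraries, a log2 fold change of -0.07 ± 0.045 (edgeR adjusted p = 0.209).

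nab-1 and mapk-15, whose levels separate the spr double mutant from N2, were examined next, followed by unc-38, icmt-1 and hop-1. nab-1, which encodes the synaptic scaffold protein neurabin, had 81.3, 75.1 and 74.8 CPM in the double mutant and 34.5, 34.8 and 32.6 CPM in the triple-labelled libraries. N2 held 9.43, 9.52 and 9.71 CPM and daf-2 10.7, 11.3 and 12.3 CPM. The triple-labelled level lay between the others. It fell by 1.18 ± 0.053 on the log2 scale from the double mutant and was above every N2 and daf-2 library. mapk-15, a kinase gene, had 15.7, 16.1 and 16.7 CPM and 13.7, 13.2 and 15.2 CPM in the same order of groups, against 2.08, 3.16 and 2.37 CPM in N2 (triple-labelled over double mutant -0.20 ± 0.11, edgeR adjusted p = 0.137, or 0.0386 in a fit of only the groups compared). unc-38, which encodes a nicotinic acetylcholine receptor subunit, rose in the triple-labelled libraries by 0.31 ± 0.089. Its neighbour icmt-1, which encodes a methyltransferase of isoprenylated proteins, rose by 1.22 ± 0.14. Both rises were smaller than in daf-2 over N2, with differences of -2.44 for unc-38 and -3.97 for icmt-1 (edgeR adjusted p = 8.35e-10 and 6.54e-07). hop-1, a presenilin gene, had 62.97, 63.2 and 63.9 CPM in the double mutant and 54.3, 55.7 and 55.9 CPM in the triple-labelled libraries and fell by 0.20 ± 0.041. Because spr-3 and nab-1 both differ between the groups compared, a daf-2 effect and a difference in spr genotype or strain cannot be told apart in any result that follows.

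Across all genes tested, 7777 were called, which is 49.3% of them. The 4069 genes that were higher in the triple-labelled libraries are 25.8% of the genes tested, and the 3708 that were lower are 23.5%. Scaled on total counts alone the split was 4816 higher (30.6%) and 2253 lower (14.3%). Larger changes were mostly rises: 1159 genes (7.35%) were called and over 2-fold higher and 466 (2.96%) were called and over 2-fold lower. Over 4-fold the counts were 251 (1.59%) and 156 (0.99%). The median log2 fold change over all genes tested was 0.01. Both sets of over 2-fold changes lay among weakly expressed genes, with a median level of 1.35 CPM for the rises and 0.803 CPM for the falls, against 9.35 CPM over all genes tested. Counts of list members below are to be read against 25.8% and 23.5%, and those given on total counts against 30.6% and 14.3%.

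The same daf-2 contrast in the N2 background shares no library with this one. The log2 fold changes of the 2 contrasts had a Pearson correlation of 0.62 across 15764 genes, which share one scaling and are not independent replicates. Of the genes called, 4745 were called in the same direction in both, out of 8560 called in the N2 background (54.3% of the genes tested, 27.4% higher and 26.9% lower). That is 61.0% of those called in the spr background and 55.4% of those called in the N2 background. A further 156 were higher here and lower in daf-2 over N2, and 213 were lower here and higher there. The interaction, which tests whether the difference itself changed, was called for 4523 genes (28.7%), 2224 of them higher in the spr background (14.1%) and 2299 lower (14.6%). Scaled on total counts alone the median interaction of all genes moved from 0.01 to 0.13 and the split was 3632 higher (23%) and 1054 lower (6.69%), so small interactions depend on the scaling. On that scaling 23.8% of genes were higher and 32.5% lower in daf-2 over N2. Among the genes called in the same direction in both contrasts, 856 with a called interaction changed less in the spr background and 278 changed more.

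**Figure D1:**
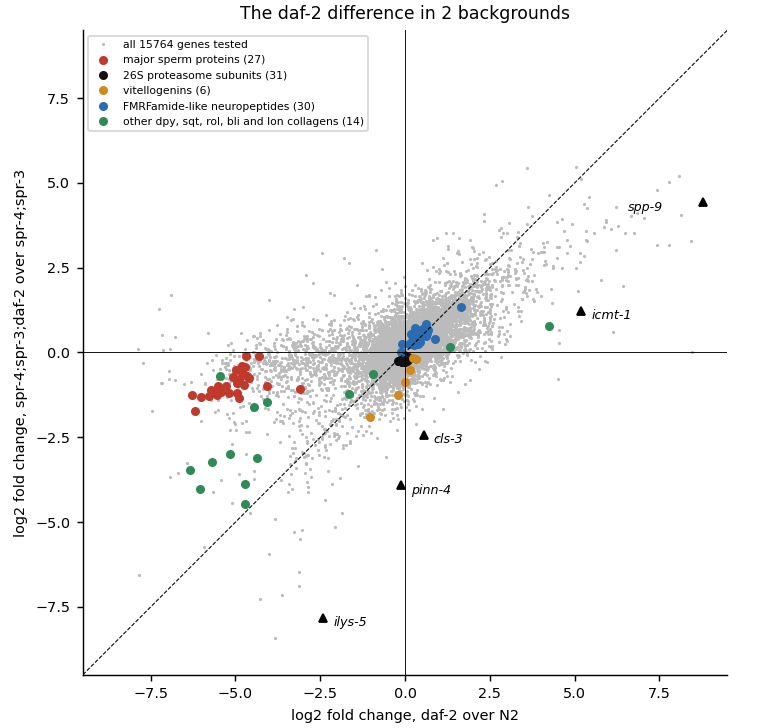
Each point is 1 gene. The x axis gives the log2 fold change of daf-2 over N2 and the y axis that of spr-4;spr-3;daf-2 over spr-4;spr-3, with the dashed line marking equal values. Major sperm protein genes lie near a median of -4.96 on the x axis and -0.99 on the y axis, while ilys-5, pinn-4 and cls-3 lie far below the line.

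Among called genes that have a gene name, average at least 1 on the log2 CPM scale and do not overlap between the groups, the largest rises included 3 saposin-like genes, a lipase gene and a neuropeptide-like gene. spp-9, spp-12 and spp-20 encode saposin-like proteins, small proteins that include antimicrobial members. spp-9 had 0.911, 1.23 and 1.55 CPM in the double mutant and 18.6, 26.9 and 35.2 CPM in the triple-labelled libraries (4.43 ± 0.35, edgeR adjusted p = 8.02e-06), and spp-20 had 0.506, 1.35 and 0.836 CPM in the double mutant and 11.1, 10.2 and 16.4 CPM in the triple-labelled libraries (3.78 ± 0.25). All 3 triple-labelled libraries lay above all 3 double-mutant libraries for both, which the choice of the genes required. Of the genes tested, 58.9% had groups that did not overlap, in either direction. nlp-39, a neuropeptide-like gene, had 0.540, 1.11 and 0.538 CPM in the double mutant and 11.5, 12.6 and 18.3 CPM in the triple-labelled libraries (4.25 ± 0.25). The lysosomal lipase gene lipl-1 had 0.641, 1.55 and 1.13 CPM in the double mutant and 10.6, 13.7 and 11.7 CPM in the triple-labelled libraries (3.41 ± 0.19). dct-8, named for its control by DAF-16, rose from 10.4, 20.96 and 15.6 CPM to 127, 135 and 151 CPM (3.12 ± 0.21). The rest of the 15 largest rises under these conditions were scl-20 (4.59), col-50 (4.01), fipr-23 (3.80), spp-12 (3.64), the phosphate transporter gene pitr-4 (3.03), ugt-36 (3.03), fipr-26 (2.97), abf-2 (2.97), the patched-related gene ptr-22 (2.90) and fbxa-135 (2.68). Each of the 15 also rose in daf-2 over N2.

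Under the same conditions the largest fall was in ilys-5 (WBGene00017691, chromosome X, 6533490 to 6536840 in WBcel235), an invertebrate-type lysozyme gene. It had 416, 360.3 and 412 CPM in the double mutant and 1.91, 2.13 and 1.25 CPM in the triple-labelled libraries, a log2 fold change of -7.82 ± 0.15 (edgeR adjusted p = 3.34e-12). The daf-2 libraries held 126, 109 and 137 CPM of it and the N2 libraries 684, 679 and 627 CPM. pinn-4, which encodes a prolyl isomerase, had 52.1, 41.8 and 47.2 CPM in the double mutant and 3.03, 2.85 and 3.49 CPM in the triple-labelled libraries (-3.91 ± 0.096), beside -0.11 ± 0.071 in daf-2 over N2. cls-3, a gene of the CLASP family of microtubule-binding proteins, had 67.5, 60.2 and 65.8 CPM in the double mutant and 12.1, 12.6 and 11.5 CPM in the triple-labelled libraries (-2.42 ± 0.061) and rose by 0.55 in daf-2 over N2. For these 3 genes the difference between the backgrounds was called, at -5.40, -3.79 and -2.97 (edgeR adjusted p = 3.5e-09, 3.88e-14 and 2.54e-16). The cathepsin B-like protease gene cpr-5 fell from 54.04, 50.1 and 60.3 CPM to 3.87, 3.57 and 3.76 CPM (-3.87 ± 0.14). The remaining members of the 15 largest falls so chosen were the C-type lectin genes clec-10 (-4.44) and clec-190 (-2.81), dod-24 (-2.64), cyp-13A2 (-2.40), the desaturase gene fat-7 (-2.40) and 6 cuticle collagen genes, col-133 (-4.12), col-77 (-3.82), dpy-4 (-3.10), col-125 (-2.81), col-97 (-2.66) and col-39 (-2.55).

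**Figure D2:**
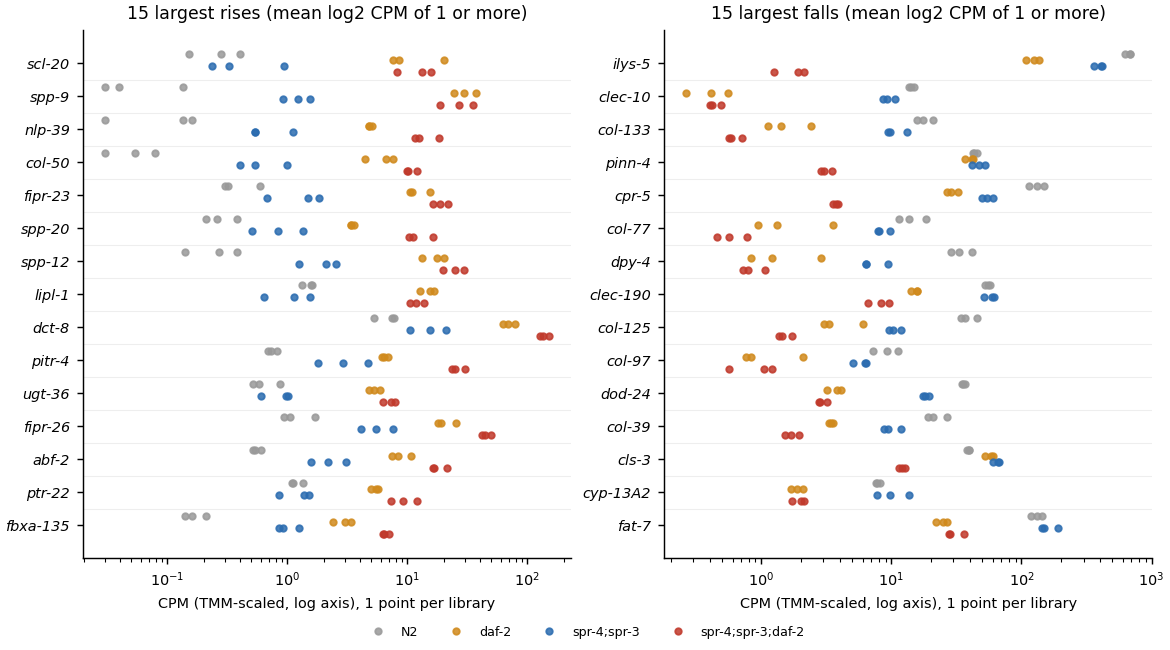
Levels of the 15 largest called rises and falls, among named genes that average at least 1 on the log2 CPM scale, in every library of the 4 groups, on a log axis in CPM. The spr-4;spr-3;daf-2 and spr-4;spr-3 points do not overlap for any gene shown, which the choice of the genes required, and ilys-5 stands at 1.91, 2.13 and 1.25 CPM in the triple-labelled libraries.

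**Figure D3:**
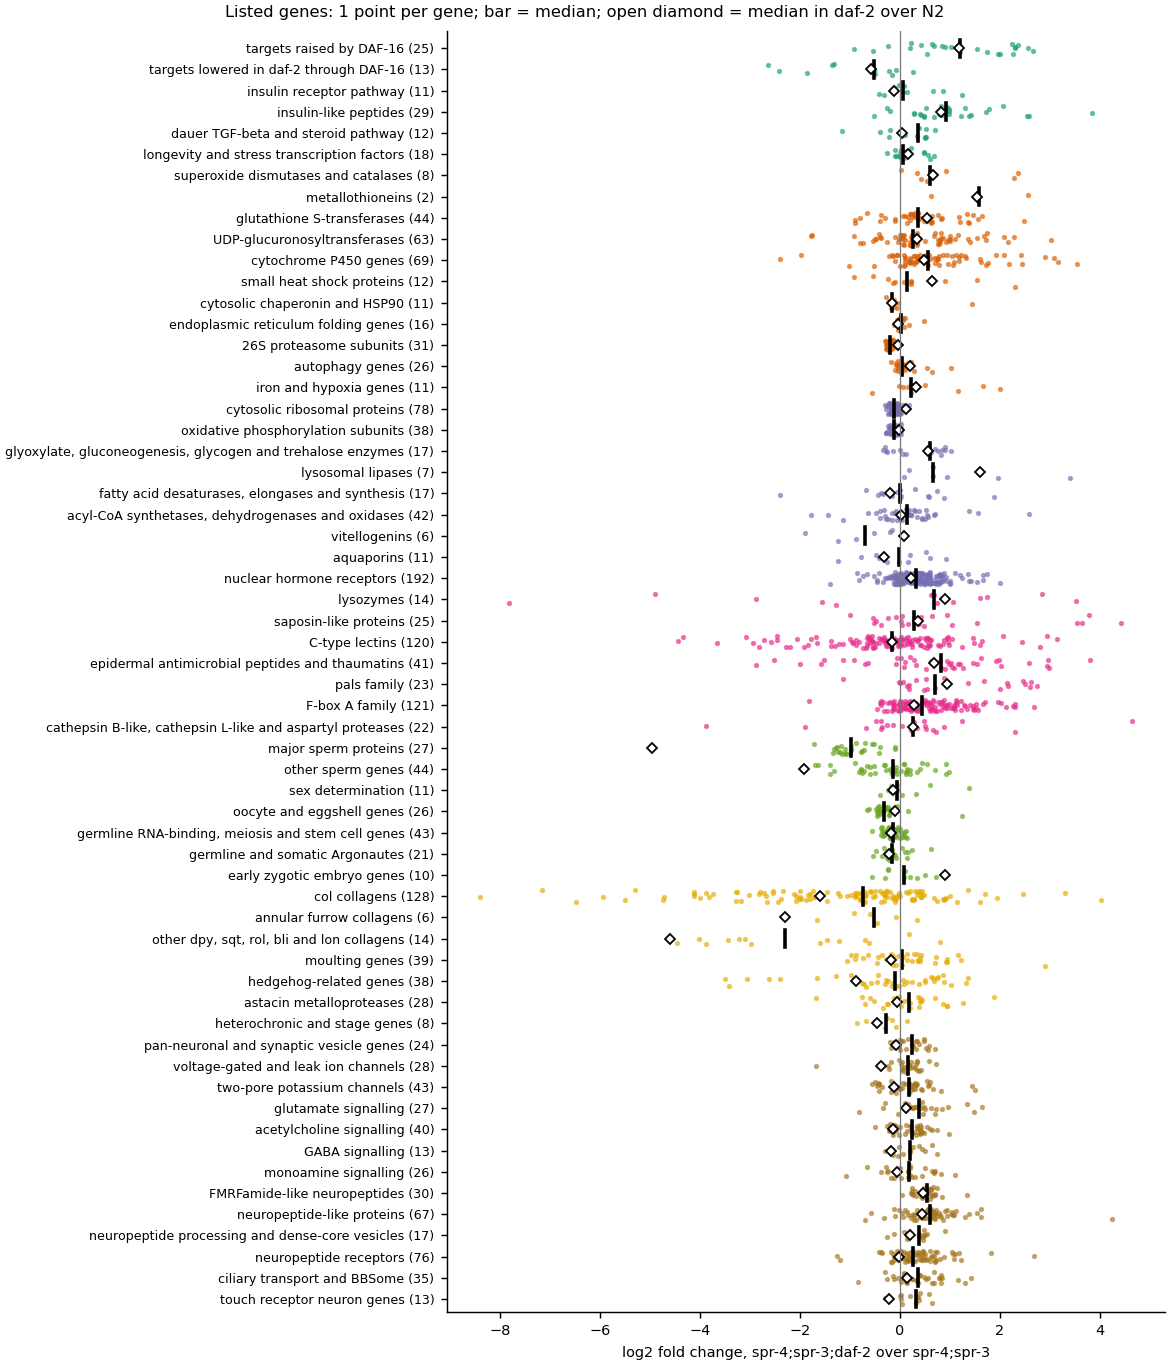
Log2 fold changes of every tested member of the gene lists, 1 point per gene, with a bar at each list's median and an open diamond at its median in daf-2 over N2. The number of tested members is in parentheses, and the 31 proteasome genes form a narrow band below 0 while the collagens span the widest range.

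In the insulin pathway akt-1, akt-2, pdk-1 and ist-1 rose, and sgk-1 and aap-1 fell. akt-2, one of the AKT kinase genes that restrain DAF-16, had 16.1, 23.7 and 18.8 CPM in the double mutant and 44.4, 46.1 and 47.99 CPM in the triple-labelled libraries (1.24 ± 0.10, edgeR adjusted p = 1.16e-07). ist-1, the insulin receptor substrate gene, rose by 0.86 ± 0.11, pdk-1 by 0.66 ± 0.080 and akt-1 by 0.14 ± 0.036. The kinase gene sgk-1 fell by 0.42 ± 0.070 and the phosphoinositide 3-kinase adaptor gene aap-1 by 0.16 ± 0.040. daf-16 (-0.10 ± 0.049), age-1 (-0.03 ± 0.040), pptr-1 (0.07 ± 0.053) and daf-2 did not pass the test. On total counts aap-1 was not called (adjusted p = 0.0799), and with RLE size factors daf-16 was called lower (0.041). Of 29 insulin-like peptide genes, which encode the receptor's ligands, 21 rose and 1 fell. ins-22 had 0.810, 0.762 and 0.866 CPM in the double mutant and 5.08, 5.19 and 3.88 CPM in the triple-labelled libraries (2.53 ± 0.18), ins-10 rose by 2.59 ± 0.21 and ins-35 by 2.07 ± 0.25. ins-7, a peptide gene that DAF-16 is known to lower, fell by 0.53 ± 0.14, and of 13 genes listed as lowered in daf-2 mutants through DAF-16 10 fell and 3 did not pass the test.

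Most stress and iron genes on the list of known DAF-16 targets had a higher level in the triple-labelled libraries. ftn-1, an iron-storage ferritin gene, had 14.7, 22.3 and 19.2 CPM in the double mutant and 76.7, 76.4 and 72.7 CPM in the triple-labelled libraries (2.00 ± 0.14). Its rise was smaller than in daf-2 over N2, where it was 3.03 (interaction -1.03, edgeR adjusted p = 0.00408). Of the list of 25 measured DAF-16-raised genes 20 rose and 2 fell, with a median of 1.20. The 2 that fell were the small heat shock genes hsp-16.41 (-0.92 ± 0.25) and hsp-16.2 (-0.54 ± 0.20, edgeR adjusted p = 0.0337), and the count of falls came to 1 without any single library of either spr group other than double mutant replicate 1, without N2 replicate 2, without daf-2 replicate 1 or on total counts. In daf-2 over N2 hsp-16.2 rose by 0.89 and hsp-16.41 was at 0.72, not called, and for both the difference between backgrounds was called. hsp-16 genes are near-identical copies, and how reads matching several places were counted is not given in the sources used here. By contrast hsp-12.3 rose by 2.30 ± 0.19, hsp-12.6 by 1.55 ± 0.21 and the inducible hsp-70 from 17.7, 27.3 and 27.1 CPM to 57.2, 72.01 and 66.9 CPM (1.44 ± 0.16).

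din-1 encodes a corepressor that binds the nuclear receptor DAF-12, and it had 114, 105 and 107 CPM in the double mutant and 50.4, 46.5 and 48.6 CPM in the triple-labelled libraries (-1.17 ± 0.055, edgeR adjusted p = 1.24e-12). Its log2 fold change in daf-2 over N2 was -0.28, and the interaction was -0.88 (edgeR adjusted p = 7.6e-08). daf-12 itself rose by 0.38 ± 0.064 and the SMAD genes daf-8, daf-14 and daf-3 by 0.69, 0.51 and 0.50. In all, 6 of 12 genes of the dauer pathways rose and 4 fell, or 2 fell on total counts. Of 18 longevity and stress transcription factor genes 7 rose and 1 fell. atfs-1, the regulator of the mitochondrial unfolded protein response, had 61.7, 64.7 and 66.1 CPM in the double mutant and 88.5, 96.9 and 99.1 CPM in the triple-labelled libraries (0.56 ± 0.047), beside 0.09 in daf-2 over N2 (interaction 0.48, edgeR adjusted p = 1.71e-05). The zinc-finger gene pqm-1 rose by 0.69 ± 0.076, pha-4 by 0.60 ± 0.10, mdl-1 by 0.49 ± 0.059 and xbp-1 by 0.47 ± 0.043. The GATA factor gene elt-3 fell by 0.27 ± 0.068.

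Antioxidant and detoxification families leaned upward. Of 8 superoxide dismutase and catalase genes 7 rose, 2 of them over 2-fold, with a largest log2 fold change of 2.36. Smaller rises were those of the extracellular enzyme gene sod-4 (0.41 ± 0.074), the cytosolic sod-1 (0.33 ± 0.041), and the catalase genes ctl-1, ctl-2 and ctl-3 (0.54, 0.64 and 0.92). The mitochondrial sod-2 had 105, 99.1 and 101 CPM in the double mutant and 105, 102 and 101 CPM in the triple-labelled libraries and did not pass (0.02 ± 0.044, edgeR adjusted p = 0.773). Of 2 metallothionein genes 2 rose, with the larger log2 fold change at 2.56. The smaller was that of mtl-2, a metallothionein gene of the intestine, which had 157, 161 and 167 CPM in the double mutant and 249, 236 and 261 CPM in the triple-labelled libraries (0.62 ± 0.050). Its log2 fold change in daf-2 over N2 was -0.0033, and the difference between backgrounds was called (edgeR adjusted p = 1.88e-06). Among 44 glutathione S-transferase genes 23 rose and 6 fell, with gst-34 at 2.49 ± 0.24 and gst-41 at 1.35 ± 0.15. UDP-glucuronosyltransferase genes rose in 34 of 63 and fell in 12, among them ugt-27 (2.28 ± 0.18) and ugt-53 (-1.76 ± 0.14). Of 69 cytochrome P450 genes 42 rose and 5 fell, a share of rises well above 25.8%. cyp-35B1, a known DAF-16 target, had 4.59, 7.95 and 4.69 CPM in the double mutant and 34.2, 27.6 and 32.6 CPM in the triple-labelled libraries (2.45 ± 0.21), and cyp-14A3 rose by 2.91 ± 0.25 against 1.59 in daf-2 over N2.

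Of 11 iron and hypoxia genes 8 rose and 1 fell. The metal transporter gene smf-3 rose by 1.17 ± 0.13 and nhr-57, a known target of the hypoxia factor HIF-1, from 2.73, 3.20 and 2.54 CPM to 8.48, 10.4 and 7.99 CPM (1.66 ± 0.17). rhy-1, which encodes a regulator of HIF-1, fell by 0.57 ± 0.10 but was 0.41 in daf-2 over N2, a called difference (interaction -0.98, edgeR adjusted p = 1.93e-05). In autophagy 7 of 26 genes rose and 0 fell, including the selective autophagy receptor gene sqst-1, with 90.3, 113 and 101 CPM in the double mutant and 201, 209.9 and 202 CPM in the triple-labelled libraries (1.01 ± 0.079), and lgg-1, which encodes a ubiquitin-like protein of autophagosomes (0.54 ± 0.045). That share is close to the background of 25.8%, and on total counts 11 rose, beside 30.6%. The falls came to 1 without double mutant replicate 2 or triple-labelled replicate 3.

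Every measured subunit gene of the 26S proteasome, the complex that degrades ubiquitin-tagged proteins, was lower in the triple-labelled libraries. All 31 of 31 were called, against a background of 23.5% lower, and their log2 fold changes ran from -0.29 to -0.11 with a median of -0.21. rpn-3, a subunit of the regulatory cap, had 419, 404 and 424 CPM in the double mutant and 353, 347 and 333 CPM in the triple-labelled libraries (-0.27 ± 0.040), and pbs-3, a subunit of the catalytic core, 177, 175 and 178 CPM in the double mutant and 144, 145 and 143 CPM in the triple-labelled libraries (-0.29 ± 0.037). The summed level of the 31 genes was 7919.9 to 8067 CPM in the double mutant and 6828 to 6959.7 CPM in the triple-labelled libraries. In daf-2 over N2 5 of the 31 fell and 0 rose, at a median of -0.05, and for 22 the interaction was called, all lower in the spr background (background 14.6%). On total counts that number was 2, and 16 fell in daf-2 over N2. On total counts the median of the triple-labelled over double mutant values moved to -0.14 and kept its sign. Tested against a 1.5-fold change, 0 of the 31 were called lower, and over the other alternative fits 23 to 31 were. Of 11 genes of the cytosolic chaperonin and its partners 8 fell, led by cct-5 (-0.28 ± 0.038) and cct-6 (-0.23 ± 0.038), and hsp-70 rose. On total counts 4 of the 11 fell.

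Ribosomal protein genes also shifted slightly down, by less than the proteasome genes. Of 78 members 31 fell and 2 rose (0 without double mutant replicate 3 or triple-labelled replicate 3, 1 without triple-labelled replicate 1, and 4 on total counts), with a median of -0.11, whereas in daf-2 over N2 34 rose and 5 fell. The interaction was lower for 39 and higher for 0, or 12 and 1 on total counts, where 20 rose and 8 fell in daf-2 over N2. rpl-12 had 817, 847 and 818 CPM in the double mutant and 684, 670.1 and 648 CPM in the triple-labelled libraries (-0.31 ± 0.056). The count of falls was not stable, at 9 on total counts, a share below the 14.3% of all genes, and 13, 12 and 17 without double mutant replicate 1, 2 or 3, and 17, 20 and 18 without triple-labelled replicate 1, 2 or 3. Of 38 subunit genes of oxidative phosphorylation 20 fell and 0 rose, including the complex I genes nuo-5 (-0.27 ± 0.068) and nuo-1 (-0.25 ± 0.046), at a median of -0.12. That count was 10 on total counts and 12 without double mutant replicate 1.

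Genes of carbohydrate reserves and of fat rose in part. Of 17 genes of the glyoxylate cycle, gluconeogenesis, glycogen and trehalose 10 rose and 5 fell. pck-1, phosphoenolpyruvate carboxykinase, had 144, 162 and 154 CPM in the double mutant and 294, 278 and 283 CPM in the triple-labelled libraries (0.89 ± 0.097), and the trehalose synthase genes tps-2 and tps-1 rose by 0.90 ± 0.11 and 0.76 ± 0.048. gpd-2 and gpd-3, which encode closely similar glyceraldehyde-3-phosphate dehydrogenases, rose by 1.01 and 0.81. Lysosomal lipase genes rose in 6 of 7 members, with lipl-4 at 1.96 ± 0.19 and lipl-2 at 0.94 ± 0.11. lipl-3 rose by 0.66 ± 0.15 here and by 2.17 in daf-2 over N2, and lipl-6 rose by 0.65 ± 0.24 here and fell by 1.90 there, both called differences between the backgrounds. The rise of lipl-6 was not called by DESeq2, with no filter on low counts or without double mutant replicate 2 or 3 or triple-labelled replicate 1 or 2.

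acs-2, which encodes a mitochondrial acyl-CoA synthetase for fatty acid oxidation, had 12.01, 16.1 and 16.7 CPM in the double mutant and 94.2, 74.7 and 100.2 CPM in the triple-labelled libraries (2.58 ± 0.15, edgeR adjusted p = 3.97e-07). Its rise was larger than the 1.14 of daf-2 over N2 (interaction 1.44, edgeR adjusted p = 0.0011). Among fatty acid desaturases, the stearoyl-CoA desaturase gene fat-7 fell from 191, 150.3 and 144 CPM to 36.1, 27.8 and 27.96 CPM while its relatives fat-5 and fat-6 rose, fat-5 from 53.8, 60.9 and 52.9 CPM to 216, 189 and 209 CPM (1.87 ± 0.084) and fat-6 by 0.73 ± 0.051. fat-2 rose by 0.87 ± 0.047, and fasn-1, the fatty acid synthase gene, fell by 0.68 ± 0.051. Of 17 desaturase, elongase and synthesis genes 6 rose and 3 fell, and of 42 acyl-CoA synthetase, dehydrogenase and oxidase genes 18 rose and 10 fell, including the peroxisomal oxidase gene acox-1.2 (-1.43 ± 0.11). Nuclear hormone receptor genes, a large family of ligand-bound transcription factors in worms, were higher in 88 of 192 cases and lower in 9, with nhr-62 at 1.54 ± 0.090 and nhr-57 as given above.

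Vitellogenin genes, which the intestine expresses to load oocytes with yolk, were lower in the triple-labelled libraries in 5 of 6 cases. vit-1 had 2152, 1942 and 2161 CPM in the double mutant and 584, 626 and 475 CPM in the triple-labelled libraries (-1.89 ± 0.098), vit-4 fell by 1.24 ± 0.077, vit-3 by 0.88 ± 0.069, vit-5 by 0.53 ± 0.064 and vit-6 by 0.20 ± 0.064. The fall of vit-6 was not called without double mutant replicate 1 or 3 or triple-labelled replicate 3. vit-2 had 41784, 41066 and 40791 CPM in the double mutant and 37310.5, 38474 and 35210.5 CPM in the triple-labelled libraries and missed the threshold (-0.16 ± 0.067, edgeR adjusted p = 0.0602), which it passed without daf-2 replicate 1 or 3, with RLE size factors, with no filter on low counts, by DESeq2, by limma-voom and in a fit of only the groups compared (adjusted p from 0.00088 to 0.0422). Thus 5 of 6 fell, where 2 fell and 2 rose in daf-2 over N2, and all 6 interactions were called and lower. The summed level of the 6 genes was 106677 to 110244 CPM in the double mutant and 83654 to 91846 CPM in the triple-labelled libraries. vit-3, vit-4 and vit-5 are close copies, and reads may have been split among them. rme-2, the oocyte's yolk receptor gene, had 615, 608 and 616 CPM in the double mutant and 409.7, 416 and 376 CPM in the triple-labelled libraries (-0.61 ± 0.046). In whole animals fewer cells of a type and less RNA per cell cannot be told apart, here or in the tissues below.

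Oocyte and eggshell genes fell with rme-2. Of 26 members 23 fell and 2 rose, with puf-5, an oocyte RNA-binding protein gene, at -0.46 ± 0.049, the chitin synthase gene chs-1 at -0.46 ± 0.044 and egg-5 at -0.49 ± 0.044. cpg-7 went against them, from 8.50, 10.8 and 10.4 CPM to 27.3, 20.8 and 21.7 CPM (1.23 ± 0.14). In daf-2 over N2 12 of the 26 fell and 6 rose. The summed level of 6 oocyte and eggshell markers was 6028 to 6197 CPM in the double mutant and 4679 to 5032 CPM in the triple-labelled libraries, all 6 called lower. Of 43 genes of germline RNA binding, meiosis and stem cells 28 fell and 1 rose, with falls in the germ granule helicase gene glh-1 (-0.34 ± 0.052), glh-4 (-0.38 ± 0.045) and the Nanos-related gene nos-1 (-0.39 ± 0.049). Argonaute genes fell in 11 of 21 and rose in 3, with wago-4 at -0.48 ± 0.047 and the nuclear germline Argonaute gene hrde-1 at -0.37 ± 0.049. On total counts 18 of the 43 fell and 5 rose, and 7 of the 21 Argonaute genes fell and 5 rose. The single rise among the 43 came to 0 without triple-labelled replicate 3, to 2 without N2 replicate 2 or 3, daf-2 replicate 2 or triple-labelled replicate 2, and to 3 without daf-2 replicate 1 or 3. Early zygotic embryo genes, which embryos held in the uterus would supply, showed few calls: 1 of 10 rose and 2 fell, or 1 fell without double mutant replicate 2 or triple-labelled replicate 3. end-3, a gut-specifying factor gene, had 0.843, 1.26 and 1.31 CPM in the double mutant and 1.23, 1.14 and 1.25 CPM in the triple-labelled libraries (0.08 ± 0.22).

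Major sperm protein genes were lower too, but by far less than in the N2 background. They encode the cytoskeletal and signalling protein of nematode sperm. msp-36 had 3.37, 4.25 and 5.23 CPM in the double mutant and 2.35, 1.04 and 1.95 CPM in the triple-labelled libraries (-1.25 ± 0.24). N2 held 14.5, 13.4 and 10.6 CPM and daf-2 0.332, 0.293 and 0.193 CPM. Of 27 measured msp genes 20 fell and 0 rose, with a median of -0.99, where all 27 fell in daf-2 over N2 at a median of -4.96. The interaction was called for all 27. Among 44 other sperm genes 13 fell and 6 rose here, and 28 fell in daf-2 over N2. The share of falls here is close to the background of 23.5%. ssq-2, a sperm-specific gene, fell by 1.32 ± 0.17 and nsph-3.2 by 1.39 ± 0.22, while spe-9, which encodes a sperm surface protein for fertilization, had 0.304, 0.498 and 0.209 CPM in the double mutant and 0.606, 0.692 and 0.733 CPM in the triple-labelled libraries (0.99 ± 0.34), not called by DESeq2 or without double mutant replicate 1 or 3 or triple-labelled replicate 3. The msp genes include near-identical copies among which reads could be split, which makes values for 1 gene uncertain. The summed level of 8 sperm markers ran from 27.3 to 35.0 CPM in the double mutant and from 19.2 to 27.4 CPM in the triple-labelled libraries. These ranges overlap, and of the 8 markers 2 were called lower and 1 was called higher.

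Of 11 sex determination genes 2 rose and 4 fell, or 2 fell on total counts. fog-3, which directs germ cells to become sperm, had 2.36, 3.14 and 3.55 CPM in the double mutant and 7.78, 7.45 and 8.52 CPM in the triple-labelled libraries, without overlap (1.38 ± 0.15, edgeR adjusted p = 1.33e-07). Its partner fog-1 rose by 0.60 ± 0.058. In daf-2 over N2 the values were -0.18 and 0.02, and for both the difference between the backgrounds was called (edgeR adjusted p = 0.000282 and 2.56e-05). tra-2, which promotes the female fate, fell by 0.39 ± 0.069, the germline RNA-binding protein gene gld-1 by 0.24 ± 0.048 and fem-3, which promotes the male fate, by 0.18 ± 0.048. On total counts the fall of fem-3 was not called.

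**Figure D4:**
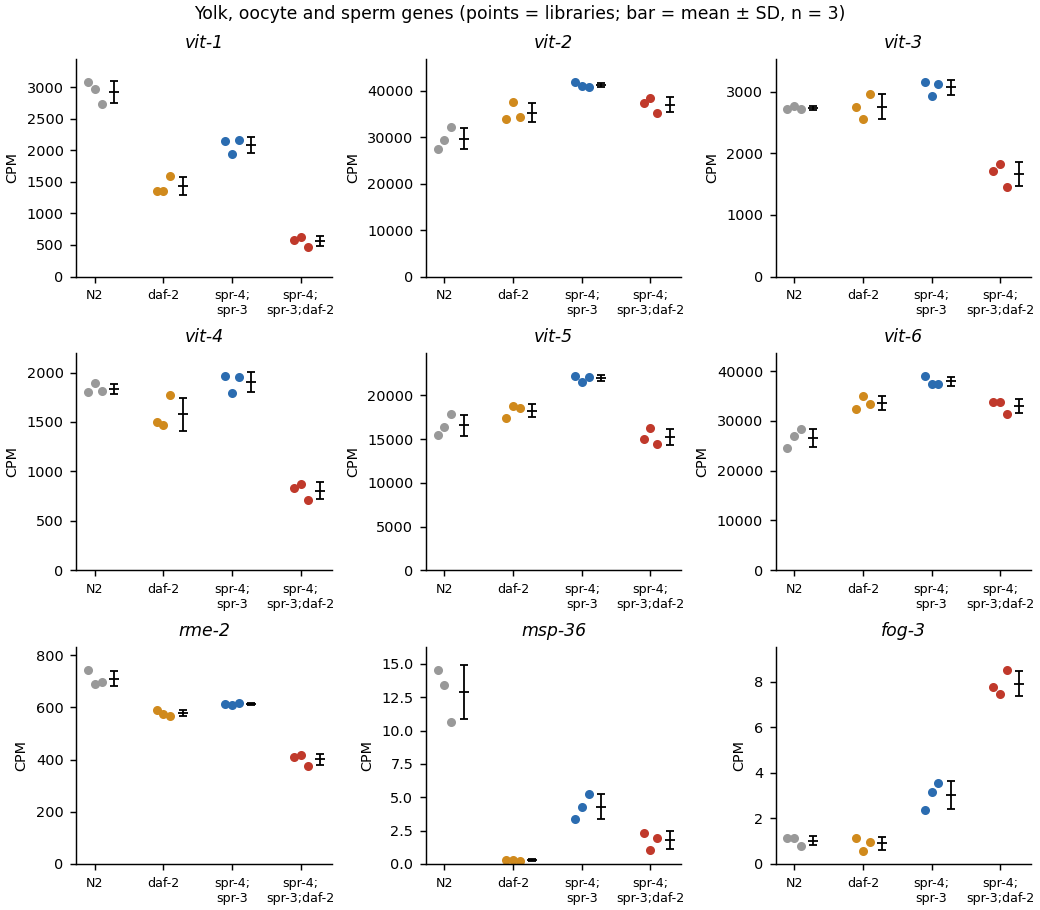
CPM of 6 vitellogenin genes, the yolk receptor gene rme-2, the sperm gene msp-36 and the sperm-fate gene fog-3 in every library, with the mean and SD of each group (n = 3). vit-1, vit-3 and vit-4 are lowest in the triple-labelled libraries, msp-36 is lowest in daf-2, and fog-3 is highest in the triple-labelled libraries at 7.78, 7.45 and 8.52 CPM.

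Immune effector families moved in both directions, gene by gene. Among 14 lysozyme genes 9 rose and 5 fell. lys-7, a known target of DAF-16, had 241, 359.5 and 309.6 CPM in the double mutant and 960.4, 936 and 1136 CPM in the triple-labelled libraries (1.74 ± 0.14), and lys-3, lys-2, lys-8 and lys-1 rose by 1.06, 0.73, 0.69 and 0.66. lys-4 fell from 122, 111 and 129 CPM to 51.1, 54.95 and 42.6 CPM (-1.28 ± 0.12) and lys-6 by 2.87 ± 0.18, beside ilys-5. Of 25 saposin-like genes 13 rose and 4 fell. Of 120 C-type lectin genes, many of which answer to infection, 42 fell and 31 rose, with clec-31 at -4.34 ± 0.31 and clec-76 at 3.14 ± 0.25. Their share of rises is at the background of 25.8%, and their share of falls is above that of 23.5%. Of 41 epidermal antimicrobial peptide, fipr and thaumatin genes 26 rose and 6 fell, including the caenacin gene cnc-11 (2.94 ± 0.21) and nlp-28 and nlp-34, peptides of the epidermis (1.61 ± 0.095 and 1.54 ± 0.20). fipr genes lie in clusters of similar copies, and their single values are uncertain.

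pals genes, a family that responds to intracellular pathogens, included 15 of 23 that rose and 1 that fell. pals-6 had 1.75, 1.96 and 1.16 CPM in the double mutant and 9.27, 7.69 and 9.91 CPM in the triple-labelled libraries (2.46 ± 0.17) and pals-14 rose by 2.74 ± 0.19. pals-26 rose by 2.49 ± 0.13, less than the 4.35 of daf-2 over N2 (interaction -1.86, edgeR adjusted p = 2.36e-05). Of 121 F-box A genes, a large family of putative ubiquitin ligase adaptors, 65 rose and 4 fell. Of 22 cathepsin and aspartyl protease genes 10 rose and 9 fell, at the extremes cpr-2 with 0.236, 0.176 and 0.209 CPM in the double mutant and 3.35, 5.83 and 6.50 CPM in the triple-labelled libraries (4.64 ± 0.32) and cpr-5 as given above.

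Cuticle collagen genes fell more often than they rose. Of 128 measured col genes 73 fell and 22 rose, with a median of -0.73. col-73 had 8.63, 9.44 and 10.1 CPM in the double mutant and 0.140, 0.186 and 0.122 CPM in the triple-labelled libraries (-5.95 ± 0.75), and col-138 had 6.98, 8.68 and 9.44 CPM in the double mutant and 0.303, 0.0798 and 0.147 CPM in the triple-labelled libraries (-5.51 ± 0.49). col-50 went the other way, from 0.405, 0.997 and 0.538 CPM to 9.88, 11.9 and 10.1 CPM. Of 14 other collagen genes named dpy, sqt, rol, bli or lon, which shape the body, 12 fell, with dpy-5 at -4.46 ± 0.58, dpy-13 at -3.88 ± 0.61, sqt-1 at -4.02 ± 0.34 and rol-6 at -3.45 ± 0.34. rol-6 had only 0.0699 to 0.195 CPM in the triple-labelled libraries. The sizes of the falls of col-73, col-138 and rol-6 thus rest on few reads on that side. The same 14 had a median of -2.30 here and -4.59 in daf-2 over N2, and 7 interactions were higher and 2 lower. sqt-2 had 4.65, 4.54 and 5.49 CPM in the double mutant and 3.35, 2.82 and 2.83 CPM in the triple-labelled libraries (-0.70 ± 0.15), beside -5.45 in daf-2 over N2 (interaction 4.75, edgeR adjusted p = 1.01e-10). The 6 annular furrow collagen genes ran from -1.66 for dpy-8 to 0.34 for dpy-9, which was not called here but was without N2 replicate 3, any daf-2 replicate or triple-labelled replicate 1, on total counts, under either other filter on low counts and in a fit of only the groups compared (adjusted p from 0.0099 to 0.0484), and all 6 interactions were called and higher. col-19, a collagen gene of the adult cuticle, had 1321, 1155 and 1199.6 CPM in the double mutant and 716, 674 and 644 CPM in the triple-labelled libraries (-0.85 ± 0.065), and lin-42, a developmental timing gene, fell by 0.69 ± 0.13. Together, 4 hypodermis markers, col-19 and rol-6 among them, summed to 1269 to 1428 CPM in the double mutant and 751 to 819 CPM in the triple-labelled libraries, with 3 of 4 called lower. Of these sums col-19 alone gave 1155 to 1321 CPM and 644 to 716 CPM. The 3 markers called lower are collagen genes, and the remaining marker was not called (-0.09 ± 0.044, edgeR adjusted p = 0.0838). The part of stage or epidermal RNA content in the falls given here was not tested.

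Hedgehog-related genes, which worms express in the epidermis, included 11 of 38 that rose and 11 that fell, with the largest falls in grl-16 (-3.42 ± 0.42) and grl-7 (-3.50 ± 0.40). Both shares are close to the backgrounds of 25.8% and 23.5%, and the rises came to 7 without triple-labelled replicate 2. Of 39 moulting and patched-related genes 15 rose and 8 fell, including mlt-10 (-1.06 ± 0.13) and ptr-11 (1.22 ± 0.097). Intestine genes split, with the dipeptide transporter gene pept-1 at -1.35 ± 0.13, the sodium-proton exchanger gene nhx-2 at -1.13 ± 0.091 and the esterase gene ges-1 at 0.95 ± 0.067, while the gut-specifying factor gene elt-2 had 13.3, 12.3 and 11.98 CPM in the double mutant and 12.05, 11.8 and 11.2 CPM in the triple-labelled libraries (-0.10 ± 0.075). Of 21 body wall muscle genes 10 fell and 1 rose, with unc-52, the perlecan gene, at -0.62 ± 0.050 and the myosin gene myo-3 at 0.49 ± 0.052. That count of falls was 5 without double mutant replicate 3, 6 without triple-labelled replicate 3 and 5 on total counts. The summed level of 5 intestine markers was 615 to 653 CPM in the double mutant and 525 to 620.0 CPM in the triple-labelled libraries, and that of 3 body wall muscle markers 2151 to 2257 and 1854 to 2196 CPM, both overlapping.

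Neuropeptide genes rose broadly in the triple-labelled libraries. FMRFamide-like peptide genes were called higher in 26 of 30 members and lower in 0. Beyond flp-34, with 1.72, 1.52 and 1.76 CPM in the double mutant and 4.17, 4.20 and 4.25 CPM in the triple-labelled libraries (1.33 ± 0.13), the rises lay close together, with flp-2 at 0.83 ± 0.12, flp-25 at 0.73 ± 0.16 and flp-9 at 0.66 ± 0.064, and the list's median was 0.55. Among 67 neuropeptide-like protein genes 53 rose and 1 fell (2 without triple-labelled replicate 1), at a median of 0.59, a list that includes the epidermal peptides above. nlp-51 had 3.81, 4.54 and 4.36 CPM in the double mutant and 9.69, 12.9 and 10.6 CPM in the triple-labelled libraries (1.38 ± 0.11). The interaction was called for 4 of the 30 flp genes and 8 of the 67 nlp genes, against 28.7% of all genes. An interaction that was not called does not show that the differences were equal in the 2 backgrounds.

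Genes that make and store these peptides rose in most members. Of 17 processing and dense-core vesicle genes 12 rose and 2 fell, and the falls came to 1 without any single library other than N2 replicate 1 or daf-2 replicate 1. egl-21, the carboxypeptidase that trims propeptides, had 56.1, 61.3 and 56.6 CPM in the double mutant and 87.3, 84.4 and 82.7 CPM in the triple-labelled libraries (0.55 ± 0.046). egl-3, the proprotein convertase gene, rose by 0.45 ± 0.045, its chaperone gene sbt-1 by 0.46 ± 0.048, the amidating enzyme gene pghm-1 by 0.47 ± 0.077 and ida-1, a dense-core vesicle gene, by 0.45 ± 0.065. The furin-like convertase gene kpc-1 had 32.4, 46.8 and 41.7 CPM in the double mutant and 66.8, 80.1 and 78.1 CPM in the triple-labelled libraries (0.89 ± 0.12). Of 76 neuropeptide receptor genes 19 rose and 3 fell, a share of rises near the background, with npr-26 at 2.67 ± 0.22 and the cholecystokinin-type receptor gene ckr-2 at -1.26 ± 0.11.

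**Figure D5:**
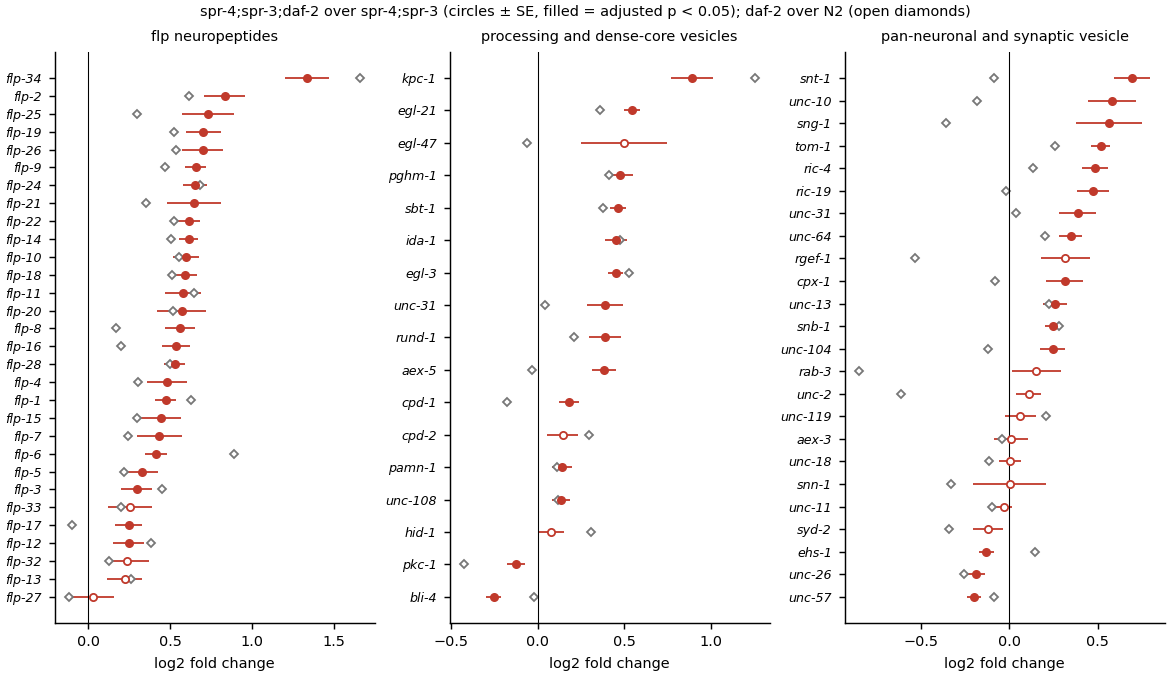
Log2 fold changes with their SE for flp neuropeptide genes, peptide processing genes and synaptic vesicle genes (circles, filled where called), beside the daf-2 over N2 values (open diamonds). 26 of 30 flp genes are filled and above 0, and the diamonds of the synaptic genes lie mostly to the left of the circles.

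Synaptic genes rose in part, and the N2 background differed. Of 24 pan-neuronal and synaptic vesicle genes 12 rose and 3 fell here (1 on total counts), at a median of 0.25, and 6 rose and 5 fell in daf-2 over N2. snt-1, the synaptotagmin gene, had 4.89, 5.07 and 4.06 CPM in the double mutant and 7.64, 7.21 and 7.84 CPM in the triple-labelled libraries (0.70 ± 0.10) and -0.09 in daf-2 over N2 (interaction 0.78, edgeR adjusted p = 0.000382). unc-10, which encodes the active zone protein RIM, rose by 0.58 ± 0.14. The interaction was called higher for 10 of the 24 and lower for 1. The summed level of 6 neuron markers was 202 to 223 CPM in the double mutant and 239 to 259.6 CPM in the triple-labelled libraries, without overlap, with 3 of 6 called higher. Of these sums 1 marker alone, among those called, gave 156 to 176 CPM and 184 to 206 CPM. Of the 3 touch receptor neuron markers none was called, and their sum was 15.6 to 16.0 CPM and 16.5 to 16.9 CPM, of which 1 marker gave 13.1 to 13.6 CPM and 13.5 to 13.9 CPM. Whether more neuronal RNA per animal or a change within neurons lies behind these values was not tested.

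Ion channel genes showed few calls here and mostly falls in the N2 background. Of 28 voltage-gated and leak channel genes 4 rose and 3 fell here, where 1 rose and 16 fell in daf-2 over N2, and the interaction was called higher for 15 and lower for 1 (background 14.1% and 14.6%). On total counts 8 rose and 1 fell, and the falls came to 1 without triple-labelled replicate 1. The potassium channel gene shk-1 had 3.81, 4.02 and 4.78 CPM in the double mutant and 6.03, 6.01 and 6.69 CPM in the triple-labelled libraries (0.57 ± 0.11), beside -0.04 in daf-2 over N2, and the L-type calcium channel gene egl-19 fell by 0.24 ± 0.076 here and by 0.79 there. The fall of egl-19 here was not called on total counts or without double mutant replicate 3 or triple-labelled replicate 1. ccb-1, a calcium channel beta subunit gene, was the exception, with 34.2, 32.6 and 32.7 CPM in the double mutant and 11.9, 9.37 and 9.87 CPM in the triple-labelled libraries (-1.67 ± 0.077, edgeR adjusted p = 5.14e-13), with an interaction of -1.37. N2 had 8.61, 8.82 and 8.42 CPM of it and daf-2 6.95, 7.41 and 6.63 CPM. Among twk potassium channel genes 9 of 43 rose and 3 fell, with twk-33 at 1.45 ± 0.12. The shares of rises and falls are below the backgrounds of 25.8% and 23.5%.

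Among transmitter genes, 3 glutamate genes, glt-5 among them, and 1 monoamine gene rose over 2-fold, and ser-4 fell over 2-fold. Of 27 glutamate signalling genes 12 rose and 3 fell, with the transporter gene glt-5 going from 3.74, 6.60 and 4.48 CPM to 13.7, 16.3 and 16.6 CPM (1.64 ± 0.15) and the glutamate-gated chloride channel gene glc-2 falling by 0.82 ± 0.11. Acetylcholine genes rose in 10 of 40 and fell in 1, including the esterase gene ace-3 (0.74 ± 0.16), which was -0.39 in daf-2 over N2. That share of rises is near the background of 25.8%. By DESeq2 6 of the 40 rose, and 2 fell without double mutant replicate 3. Monoamine genes rose in 6 of 26 and fell in 5, or 3 on total counts. Neither the share of rises nor that of falls is above the backgrounds of 25.8% and 23.5%. ser-4, a serotonin receptor gene, had 22.97, 22.05 and 24.1 CPM in the double mutant and 11.3, 9.79 and 11.6 CPM in the triple-labelled libraries (-1.07 ± 0.090), beside -0.05 in daf-2 over N2 (interaction -1.02, edgeR adjusted p = 5.18e-06). Among 35 ciliary transport genes 11 rose and 1 fell, led by osm-3, the kinesin of sensory cilia, with 3.41, 3.99 and 3.82 CPM in the double mutant and 9.06, 9.61 and 11.5 CPM in the triple-labelled libraries (1.42 ± 0.13).

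The called genes were spread over the genome with 1 exception. On chromosome V 55.6% of 3174 tested genes were called, against 47.0% to 48.6% on the other chromosomes, and 432 of them (13.6%) were called and over 2-fold higher, against 4.47% to 6.86% elsewhere. No chromosome-wide test was made. Within 1 Mb on either side of daf-2 on chromosome III 131 of 271 tested genes were called (48.3%), near spr-3 on X 120 of 256 (46.9%) and near spr-4 on I 194 of 412 (47.1%), all close to the background of 49.3%.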

How the data were processed

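Sequenced RNA came from whole worms, with 3 libraries for each of 4 genotypes. The authors deposited 1 table of whole-number read counts per gene, and per the submitters' processing notes STAR, featureCounts 1.5.1 and the genome build WBcel235 were used. No source used here gives the strand setting or the treatment of reads matching several places, so antisense, overlapping and near-identical genes are uncertain. The deposited counts of the 12 libraries summed to 30837773 to 48894725. Gene positions came from the WBcel235 annotation, release 115.

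Genes with too few reads were removed with edgeR 4.0.16 (filterByExpr, minimum count 10), which left 15764 of 46739. Libraries were scaled by TMM and fitted in 1 quasi-likelihood model (glmQLFit, robust) with genotype group as the only term and 8 residual degrees of freedom. Tests were two-sided with Benjamini-Hochberg adjustment over all genes tested, at 0.05. The contrast of interest, daf-2 over N2 and their difference, the interaction, came from this model. R 4.3.3, limma 3.58.1 (voom) and DESeq2 1.42.0 were used for alternatives.

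The same replicate numbers occur in all 4 groups, and the labels do not say that a number marks a batch. Libraries of 1 group differed by more than sampling noise, with a chi-square per degree of freedom of 3.40 to 16.5, and none was counted as a repeat of another. The p-values set a difference between groups against the spread within groups, estimated from all 12 libraries. The genotypes and the gene lists were chosen with earlier results of these data known, so no set test or list-wise p is given. Genes were named by a rule applied by a script. It took 8 label-related genes, the 15 largest called rises and falls among genes that have a name, average at least 1 on the log2 CPM scale and show no overlap, up to 6 called members per list, every member of lists of at most 15, and the 8 largest called interactions of each sign. That gave 488 genes, of which the 197 named in the text were picked with their values known. A result on 1 gene of the insulin pathway is not reported here.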

Additional observations from a re-analysis of the deposited data

Results flagged for a closer look

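For 87 of the 197 genes named above, the daf-2 log2 fold change differed between the spr and N2 backgrounds by edgeR's interaction test at an adjusted p below 0.05. That test was called for 28.7% of all genes. The naming rule took large changes and the largest called interactions, and the 197 genes were picked with their values known. Their share is therefore no measure of an excess over all genes. The values below are the difference of the log2 fold changes, spr background minus N2 background, 55 of them below 0 and 32 above.

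Below 0, genes called in the same direction in both backgrounds were ilys-5 (-5.40), spp-9 (-4.34), icmt-1 (-3.97), col-50 (-2.65), unc-38 (-2.44), spp-12 (-2.43), col-138 (-2.42), clec-31 (-1.99), pals-26 (-1.86), cnc-11 (-1.82), cpr-5 (-1.71), lipl-3 (-1.51), ins-10 (-1.51), fbxa-135 (-1.43), ccb-1 (-1.37), fipr-26 (-1.13), hsp-70 (-1.07), lys-2 (-1.04), abf-2 (-1.04), ftn-1 (-1.03), vit-4 (-1.02), clec-190 (-0.97), din-1 (-0.88), vit-1 (-0.86), lys-7 (-0.81), ugt-53 (-0.70), lipl-2 (-0.66), mdl-1 (-0.60), osm-3 (-0.57), fat-5 (-0.40), rme-2 (-0.32), ges-1 (-0.29), col-19 (-0.27), egg-5 (-0.26), nos-1 (-0.21), sod-1 (-0.21), lys-1 (-0.19) and chs-1 (-0.18). Below 0, genes called in opposite directions in the backgrounds were cls-3 (-2.97), nab-1 (-1.44), hsp-16.2 (-1.43), rhy-1 (-0.98), vit-6 (-0.54) and aap-1 (-0.28). Below 0, genes called in at most 1 of the backgrounds were pinn-4 (-3.79), hsp-16.41 (-1.64), ckr-2 (-1.06), ser-4 (-1.02), vit-3 (-0.90), vit-5 (-0.66), puf-5 (-0.42), vit-2 (-0.40), elt-3 (-0.33), rpn-3 (-0.27) and pbs-3 (-0.23). N2 held 0.0397, 0.0301 and 0.135 CPM of spp-9 and 0.0794, 0.0301 and 0.0538 CPM of col-50, so the N2 side of these 2 differences rests on few reads. The triple-labelled level of col-138 given above is also low, so the triple-labelled side of its difference rests on few reads.

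Above 0, genes called in the same direction in both backgrounds were sqt-2 (4.75), msp-36 (4.29), nsph-3.2 (4.11), ssq-2 (3.92), rol-6 (2.90), dpy-8 (2.39), sqt-1 (2.03), clec-76 (1.87), lin-42 (1.68), acs-2 (1.44), cyp-14A3 (1.32), npr-26 (1.00), acox-1.2 (0.91), pept-1 (0.82), ptr-11 (0.69), dod-24 (0.64), nhx-2 (0.59), egl-19 (0.55) and egl-21 (0.19). Above 0, 1 gene was called in opposite directions in the backgrounds, lipl-6 (2.55). Above 0, genes called in at most 1 of the backgrounds were dpy-9 (2.58), fog-3 (1.57), ace-3 (1.13), spr-3 (0.81), snt-1 (0.78), unc-10 (0.76), mtl-2 (0.62), shk-1 (0.60), fog-1 (0.58), atfs-1 (0.48), myo-3 (0.44) and pptr-1 (0.28). The triple-labelled libraries held 0.0699 to 0.195 CPM of rol-6, and the daf-2 level of msp-36 given above is also low. The differences of rol-6 and msp-36 therefore rest on few reads on 1 side as well. The causes of all the differences listed were not tested, and the spr-3 and nab-1 levels given above apply to all of them.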

How the results depend on the processing

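Scaled on total counts alone, 7069 genes were called in the triple-labelled against spr double mutant comparison, 2253 of them lower, and the interaction was higher for 3632 genes and lower for 1054. Tested against a 1.5-fold change, 1545 genes were called, 1133 higher and 412 lower, and the interaction was called for 970, 737 higher and 233 lower, since that test asks for a larger change. RLE size factors gave 7978 calls, no filter on low counts 7849, at least 1 CPM in 3 libraries 6973, DESeq2 7312, limma-voom 7646 and a fit of only the groups compared 7790. With 1 library left out at a time, the calls ranged from 6579 to 7924, those higher from 3641 to 4322 and those lower from 2923 to 3673. The interaction calls ranged from 3585 to 4780, those higher from 1768 to 2299 and those lower from 1817 to 2481.

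Same-numbered libraries did not deviate together: over 18 pairs the correlation of their residuals ran from -0.15 to 0.11, with 1 above 0.1. With a replicate block 7592 genes were called and the interaction was called for 4316.

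Of 197 named genes, 4 lost their call on total counts, 2 with DESeq2 and 73 against a 1.5-fold change. The log2 fold changes of 4 genes that were not called changed sign. sel-12 was at -0.00891 with RLE size factors, -0.00914 with DESeq2 and -0.0553 to 0.0605 with 1 library left out. age-1 was at 0.0421 on total counts and -0.0539 to 0.0128 with 1 library left out, spr-4 at 0.00159 on total counts, and end-3 at -0.0787 to 0.196 with 1 library left out. The causes were not tested. Depth limits mainly the weakly expressed genes, which hold most of the changes over 2-fold.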
